A study of Mus musculus with 13 samples.

Results

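Blood vessels, the pericytes and smooth muscle cells that wrap them, and lymphatic vessels were followed through 36 genes in the epididymal white fat of male mice. The genes were chosen by name, as endothelial, mural or lymphatic markers, with earlier results of these data known. All 36 of them were measured, out of 18820 genes tested. Each was read by 1 probe set paired with that gene alone. The tissue came from 18-week-old males on 13 Affymetrix arrays, 100 ng of total RNA each. Wild-type mice (C57/BL6) and mice without the ATP-gated channel P2X7 (the targeted allele B6.129P2-P2rx7tm1Gab/J, backcrossed for 7 generations) were placed at 6 weeks of age on chow, with 13% of energy from fat, or on a high-fat diet with 60%, and stayed on it for 12 weeks. The knockout group fed the high-fat diet had 4 arrays and each of the other 3 groups had 3. The knockout is carried in every cell of the animal, so no comparison here is specific to vessel cells. The labels do not say that each array held a separate animal; p-values therefore measure only how far these samples spread, which may be technical.

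Vascular endothelial growth factor (VEGF) made by adipocytes and other cells binds the receptors KDR and FLT1 on endothelium and drives sprouting, while the angiopoietins act on the receptor TEK and set how quiet or how plastic a vessel is. Pericytes are held at capillaries by platelet-derived growth factor signalling through PDGFRB, and arterioles carry contractile smooth muscle. Lymphatic vessels, specified by PROX1 and maintained through the receptor FLT4, drain fluid and lipid from the depot.

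The promoters of 3 endothelial receptors that passed the test in both genotypes are shown, because these genes are read together below. Each line gives the 250 bases before the transcription start on the gene's own strand, 5′ to 3′, from RefSeq on GRCm38.p6. Capitals mark an ETS core (AGGAAG, bound by factors such as ERG) in Flt1 and Robo4, and an RBPJ site (TGGGAA, the partner of Notch in the nucleus) in Kdr. The windows lie at chr5:75978456-75978705 on the minus strand for Kdr, chr5:147726012-147726261 on the minus strand for Flt1 and chr9:37401722-37401971 on the plus strand for Robo4.
Kdr: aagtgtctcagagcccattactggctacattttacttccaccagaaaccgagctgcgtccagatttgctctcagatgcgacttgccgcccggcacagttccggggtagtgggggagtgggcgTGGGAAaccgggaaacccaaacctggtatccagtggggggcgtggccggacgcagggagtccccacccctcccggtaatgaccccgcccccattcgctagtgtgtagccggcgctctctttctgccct
Flt1: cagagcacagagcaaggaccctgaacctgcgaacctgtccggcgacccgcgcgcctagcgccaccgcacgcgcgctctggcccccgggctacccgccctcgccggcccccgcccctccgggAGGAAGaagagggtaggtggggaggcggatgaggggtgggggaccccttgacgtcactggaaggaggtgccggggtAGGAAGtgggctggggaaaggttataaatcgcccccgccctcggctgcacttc
Robo4: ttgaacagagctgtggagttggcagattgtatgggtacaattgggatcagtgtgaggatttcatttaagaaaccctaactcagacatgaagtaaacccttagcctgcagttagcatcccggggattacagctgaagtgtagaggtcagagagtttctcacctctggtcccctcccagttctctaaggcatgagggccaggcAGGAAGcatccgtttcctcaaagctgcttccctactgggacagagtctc
The first capital base lies 128 bases before the start in Kdr, 129 and 53 bases before it in Flt1 and 49 bases before it in Robo4. Both strands were searched, and among the vessel genes no match of one motif overlapped a match of another. Of the 22 vessel genes with a promoter in the table, 7 held an ETS core (Egfl7, Emcn, Eng, Erg, Flt1, Robo4 and Tie1), against 32.3% of 27025 genes, so this share was not above that of all genes. The RBPJ site was present in 7 of 22 (Abcc9, Acta2, Egfl7, Erg, Kdr, Prox1 and Tie1), against 24.1% of all genes. A CArG box (CC, then 6 bases of A or T, then GG, the site of serum response factor in smooth muscle genes) was found in 0 of 22, against 1.62%. These are matches of letters in a window, and the shares among the vessel genes and among all genes are a description.

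Values below are log2 expression values, so a difference of 1 is a 2-fold change, and a plus-minus sign after a difference gives its standard error from limma. A gene is said to have risen or fallen where its limma adjusted p, over all 18820 genes, was under 0.05. The median value over genes ran from 6.56 to 6.69 across arrays, arrays of 1 group correlated at 0.993 to 0.997 across genes, and both diet contrasts moved the array median by less than 0.1. The probe set of P2rx7, the targeted gene, differed between knockout and wild-type mice on chow by -0.16 ± 0.13 (limma adjusted p 0.741) and under the high-fat diet by -0.47 ± 0.12 (adjusted p 0.464). The sources used here do not place this probe set inside or outside the targeted exons, so P2rx7 checks nothing about the genotype labels.

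Most vessel genes read lower on high-fat diet, more of them past the test in wild-type mice. In wild-type mice 23 of 36 fell (18.1% of all genes fell) and 2 rose (17.7% of all genes rose). The median difference was -0.46, against -0.03 over all genes, and 31 of the 36 differences lay below 0. In knockout mice 8 fell (19.7% of all genes) and 4 rose (14.5%), with a median of -0.22 against -0.06 over all genes and 28 differences below 0. The 8 and the 4 of 36 in knockout mice lie near the shares of all genes that fell and rose. On high-fat diet 18 genes lay wholly below chow in wild-type mice (22.5% of all genes) and 2 wholly above (20.8%). In knockout mice 10 lay wholly below (25.6%) and 4 wholly above (17.5%). Kdr, Flt1, Robo4, Rgs5, Mcam, Tagln and Lyve1 fell in both genotypes, and these 7 are to be read against 13.5% of all genes that fell in both. Angpt2 and Pdgfrb rose in both, against 12.3% of all genes.

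**Figure D1:**
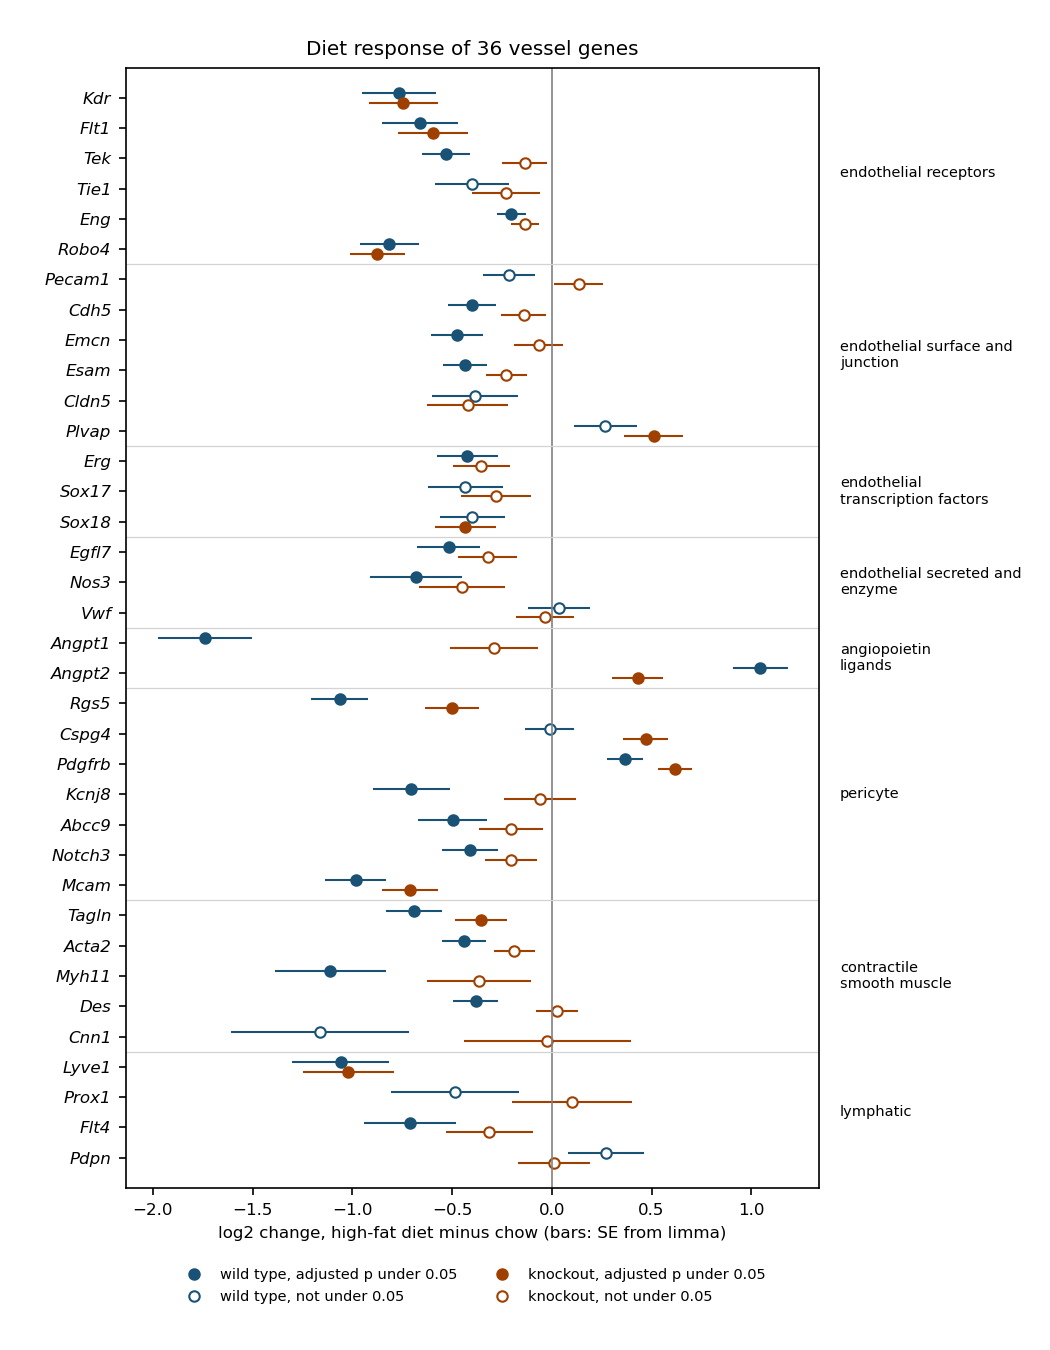
Log2 difference between high-fat diet and chow for each of the 36 vessel genes, grouped by role, with the limma standard error as bars; blue marks wild-type mice, orange knockout mice, and filled points passed at an adjusted p under 0.05. Most points lie left of 0 in both genotypes, Angpt1 lies farthest left in wild-type mice (-1.74) and Angpt2, Pdgfrb and Plvap lie right of 0.

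Counts in 2 genotypes do not show that the diet differences differ. The interaction, which tests that difference, passed for 0 of 36 genes by limma, with 8 at an unadjusted p under 0.05 (9.72% of all genes), and for 0 of all 18820. With the spread estimated only in the groups compared, 11 genes fell in wild-type mice (13.7% of all genes in that fit) and 11 in knockout mice (20.9%). The wild-type count moved with single arrays: 14 genes fell when replicate 1 on high-fat diet was left out (14.9% of all genes) and 15 when replicate 3 on chow was (16.1%). In knockout mice 5 genes fell without replicate 2 on chow (15.4%), and 5 without replicate 2 on high-fat diet (17%). With array weights 13 fell in knockout mice (24.1% of all genes).

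The 3 wild-type arrays on high-fat diet were uneven for these genes. Replicate 1 held the lowest value of all 13 arrays for 27 of 36 genes, and within its group it was lowest for 30. Replicate 2 was the highest of its group for 24. The knockout arrays on high-fat diet were uneven too, with replicate 1 the highest of its group for 25 of 36 genes. The mean over the 18 endothelial genes was 8.71, 9.37 and 9.05 in the 3 wild-type arrays on high-fat diet, against 9.41 to 9.49 on wild-type chow. Of these 3 arrays, the one highest for endothelial genes was also highest for transcripts typical of liver and for adipocyte markers. It was lowest for macrophage markers. The adipocyte mean was 11.17, 11.62 and 11.26 in these arrays, and the macrophage mean 10.05, 9.63 and 10.03. Replicate 1 of the knockout high-fat group was likewise highest of its group for endothelial genes (9.40), liver (6.19) and adipocytes (11.67), and lowest for macrophages (9.63). The part of adipocytes and macrophages was not tested. On wild-type chow the order for liver was otherwise, since replicate 1 was highest for liver (7.74) and lowest for endothelial genes (9.41). That for macrophages was otherwise too, since replicate 3 was highest for macrophage markers (9.03) and for endothelial genes (9.49). The liver mean over 15 genes was 5.84, 6.95 and 5.34 in the 3 wild-type arrays on high-fat diet. It was 6.74 to 7.74 in wild-type mice on chow, and 8 of the 15 fell with the diet. The part of liver transcripts in the differences was not tested beyond the fit that follows. That fit cannot tell this part from the diet, because the liver mean also moved with the diet. In knockout mice it ran from 5.51 to 5.58 on chow and from 5.06 to 6.19 on high-fat diet, where 1 fell and 1 rose. With this liver mean as a covariate, an alternative added after seeing the data, 7 vessel genes fell in wild-type mice (Angpt1, Lyve1, Mcam, Rgs5, Robo4, Tagln and Tek), where 11.2% of all genes fell against 18.1% without the covariate. In knockout mice 8 fell (20.2% of all genes) in that fit. In the same fit 2 rose in wild-type mice (12.2% of all genes) and 4 in knockout mice (14.9%).

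**Figure D2:**
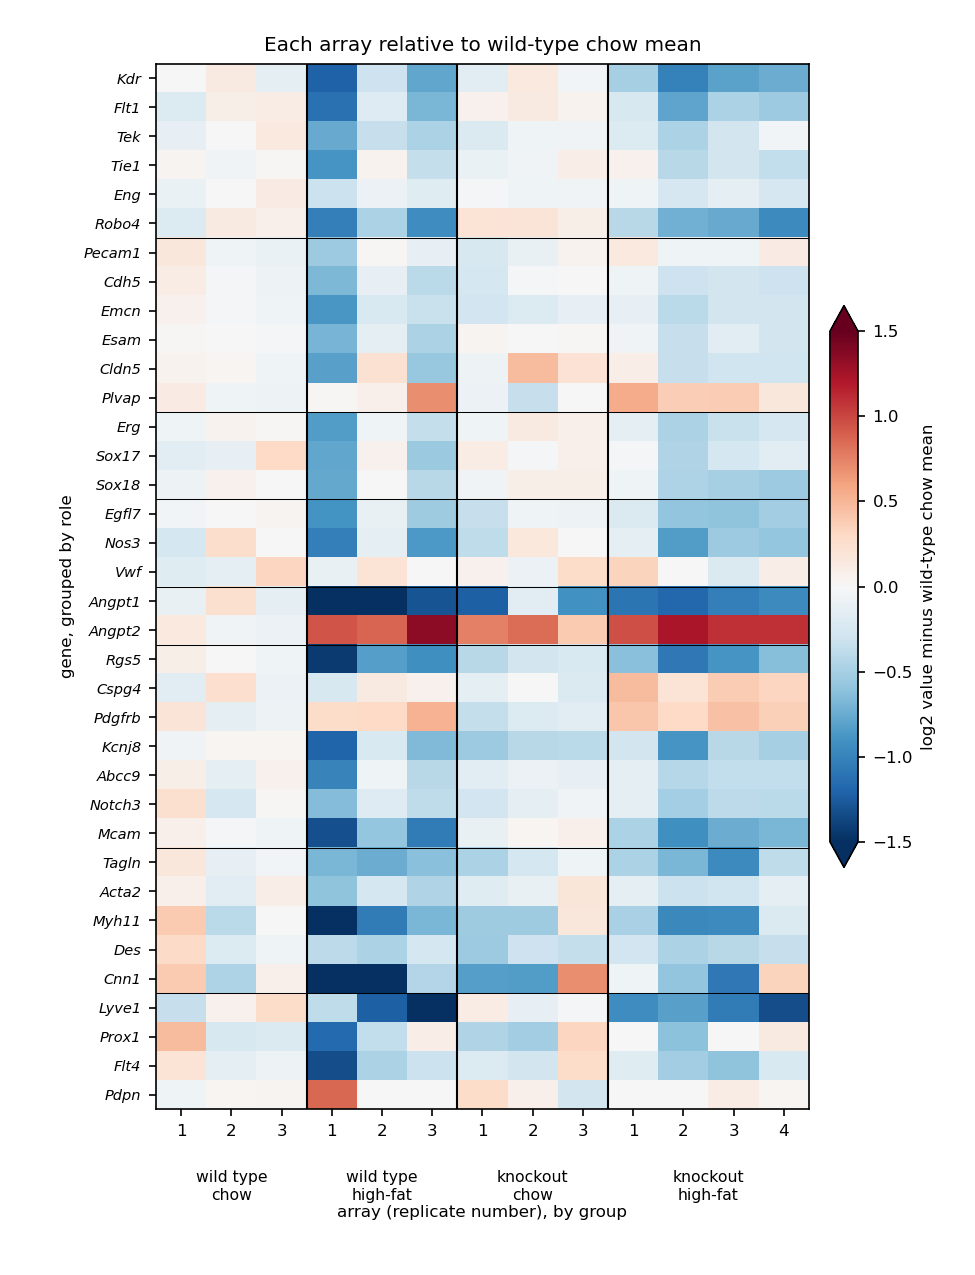
Log2 value of each vessel gene on each of the 13 arrays minus the mean of wild-type mice on chow, genes in rows by role and arrays in columns by group; the colour scale is capped at -1.5 and 1.5. Replicate 1 of the wild-type high-fat group is the darkest blue column. Angpt2 and Pdgfrb are red on high-fat diet in both genotypes, and Angpt2 is already red in knockout mice on chow.

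Among the 6 endothelial receptors, 5 fell in wild-type mice (18.1% of all genes) and 3 in knockout mice (19.7%). None rose (17.7% and 14.5% of all genes). In wild-type mice Robo4 read 9.13, 9.46 and 9.41 on chow and 8.30, 8.85 and 8.40 on high-fat diet. Knockout values of Robo4 were 9.54, 9.52 and 9.42 on chow and 8.91, 8.61, 8.57 and 8.38 on high-fat diet. Robo4, an endothelial receptor that steadies the vessel wall, was lower on high-fat diet than on chow in every array of both genotypes. Its difference was -0.81 ± 0.15 (limma adjusted p 0.000702) in wild-type and -0.87 ± 0.14 (adjusted p 0.000271) in knockout mice. In wild-type mice Kdr read 9.90, 10.03 and 9.74 on chow and 8.68, 9.58 and 9.11 on high-fat diet. Knockout values of Kdr were 9.72, 10.04 and 9.85 on chow and 9.39, 8.88, 9.09 and 9.14 on high-fat diet. The groups did not overlap for Kdr, the main signalling receptor for VEGF (VEGFR2), although replicate 2 of the wild-type high-fat group, at 9.58, lay close to chow. The Kdr difference was -0.77 ± 0.19 (limma adjusted p 0.0052) in wild-type and -0.75 ± 0.17 (adjusted p 0.00448) in knockout mice. In wild-type mice Flt1 read 9.23, 9.53 and 9.55 on chow and 8.32, 9.25 and 8.76 on high-fat diet. Knockout values of Flt1 were 9.50, 9.57 and 9.49 on chow and 9.20, 8.65, 8.96 and 8.90 on high-fat diet. Flt1, the decoy-like VEGF receptor VEGFR1, overlapped between the diets in wild-type mice through 1 array on each side and did not overlap in knockout mice. Its difference was -0.66 ± 0.19 (limma adjusted p 0.0142) in wild-type and -0.60 ± 0.18 (adjusted p 0.019) in knockout mice. The wild-type call for Flt1 was lost without replicate 3 on chow (-0.61, adjusted p 0.0516) or replicate 1 on high-fat diet (-0.43, adjusted p 0.0632). In knockout mice it was lost without replicate 2 on chow (-0.57, adjusted p 0.0635) or replicate 2 on high-fat diet (-0.50, adjusted p 0.0558).

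In wild-type mice Tek read 9.31, 9.42 and 9.58 on chow and 8.67, 9.09 and 8.95 on high-fat diet. Knockout values of Tek were 9.21, 9.36 and 9.38 on chow and 9.23, 8.95, 9.16 and 9.39 on high-fat diet. Tek, the angiopoietin receptor TIE2, did not overlap in wild-type mice and overlapped widely in knockout mice. Its difference was -0.53 ± 0.12 (limma adjusted p 0.00354) in wild-type and -0.14 ± 0.11 (adjusted p 0.393) in knockout mice, with an interaction of 0.39 ± 0.17 (adjusted p 0.48). Eng, endoglin, a co-receptor for TGF-beta and BMP9, ran from 10.54 to 10.76 on chow and from 10.32 to 10.55 on high-fat diet in wild-type mice. The Eng difference was -0.20 ± 0.07 (limma adjusted p 0.0469) in wild-type and -0.14 ± 0.07 (adjusted p 0.153) in knockout mice, and the wild-type call was lost in 9 of 13 fits that left out 1 array, with values from -0.26 to -0.14. Tie1, the orphan partner of TEK, differed by -0.40 ± 0.18 (limma adjusted p 0.111) in wild-type and -0.23 ± 0.17 (adjusted p 0.341) in knockout mice and passed in neither.

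In adipose tissue read as a whole, fewer endothelial cells and less of a transcript per cell cannot be told apart, and this holds for every vessel gene here. Of the 6 surface and junction genes, 3 fell in wild-type mice (18.1% of all genes) and none in knockout mice (19.7%), where 1 rose (14.5%). In wild-type mice Esam read 10.30, 10.28 and 10.26 on chow and 9.58, 10.14 and 9.80 on high-fat diet. Knockout values of Esam were 10.32, 10.28 and 10.30 on chow and 10.23, 9.94, 10.11 and 10 on high-fat diet. Esam, an adhesion molecule of endothelial tight junctions, did not overlap between diets in either genotype. Its difference was -0.44 ± 0.11 (limma adjusted p 0.00766) in wild-type and -0.23 ± 0.10 (adjusted p 0.115) in knockout mice. In wild-type mice Emcn read 10.46, 10.37 and 10.33 on chow and 9.52, 10.16 and 10.06 on high-fat diet. Knockout values of Emcn were 10.10, 10.19 and 10.27 on chow and 10.27, 9.98, 10.11 and 10.12 on high-fat diet. Emcn, endomucin, a sialomucin of capillary and venous endothelium, did not overlap in wild-type mice, and knockout values on the diets interleaved. The Emcn difference was -0.47 ± 0.13 (limma adjusted p 0.0119) in wild-type and -0.06 ± 0.12 (adjusted p 0.728) in knockout mice. In wild-type mice Cdh5 read 11.32, 11.19 and 11.13 on chow and 10.54, 11.09 and 10.80 on high-fat diet. Knockout values of Cdh5 were 10.95, 11.19 and 11.20 on chow and 11.15, 10.90, 10.94 and 10.90 on high-fat diet. Cdh5, VE-cadherin of the adherens junction, was lower in all 3 wild-type arrays on high-fat diet. Its difference was -0.40 ± 0.12 (limma adjusted p 0.0178) in wild-type and -0.14 ± 0.11 (adjusted p 0.367) in knockout mice. The wild-type call was lost without replicate 1 on chow (-0.35, adjusted p 0.0681) or replicate 1 on high-fat diet (-0.27, adjusted p 0.0852).

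Plvap moved the other way. In wild-type mice Plvap read 8.35, 8.17 and 8.15 on chow and 8.25, 8.31 and 8.93 on high-fat diet. Knockout values of Plvap were 8.14, 7.89 and 8.23 on chow and 8.79, 8.60, 8.61 and 8.40 on high-fat diet. Plvap forms the diaphragms of endothelial fenestrae and caveolae, and all 4 knockout values on high-fat diet exceeded those on chow, while in wild-type mice only replicate 3 stood clearly above. The Plvap difference was 0.27 ± 0.16 (limma adjusted p 0.218) in wild-type and 0.51 ± 0.15 (adjusted p 0.0163) in knockout mice, and the knockout call was lost without replicate 2 on chow (0.41, adjusted p 0.0858). Pecam1 (CD31), a general endothelial adhesion molecule, differed by -0.22 ± 0.13 (limma adjusted p 0.23) in wild-type and 0.14 ± 0.12 (adjusted p 0.437) in knockout mice. Cldn5, the claudin of endothelial tight junctions, differed by -0.39 ± 0.22 (limma adjusted p 0.195) in wild-type and -0.42 ± 0.20 (adjusted p 0.13) in knockout mice. Neither Pecam1 nor Cldn5 passed, and their values on high-fat diet ran from 9.73 to 10.29 and from 9.90 to 10.94 in wild-type mice.

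The 3 endothelial transcription factors read lower on high-fat diet in both genotypes, with 1 call in each (18.1% and 19.7% of all genes fell). In wild-type mice Erg read 8.09, 8.21 and 8.18 on chow and 7.32, 8.09 and 7.80 on high-fat diet. Knockout values of Erg were 8.10, 8.30 and 8.24 on chow and 8.03, 7.68, 7.83 and 7.91 on high-fat diet. Erg, an ETS factor that keeps endothelial identity, did not overlap between diets in knockout mice, and in wild-type mice the lowest chow array and the highest high-fat array met at 8.09. Its difference was -0.42 ± 0.15 (limma adjusted p 0.0438) in wild-type and -0.35 ± 0.14 (adjusted p 0.0724) in knockout mice. In wild-type mice Sox18 read 9.04, 9.19 and 9.13 on chow and 8.35, 9.12 and 8.70 on high-fat diet. Knockout values of Sox18 were 9.07, 9.21 and 9.21 on chow and 9.06, 8.66, 8.62 and 8.57 on high-fat diet. Sox18, which with SOX17 specifies arterial and lymphatic fate, overlapped in wild-type mice through replicate 2 on high-fat diet and did not overlap in knockout mice. Its difference was -0.40 ± 0.16 (limma adjusted p 0.0739) in wild-type and -0.43 ± 0.15 (adjusted p 0.0417) in knockout mice. Sox17 differed by -0.43 ± 0.19 (limma adjusted p 0.0894) in wild-type and -0.28 ± 0.17 (adjusted p 0.245) in knockout mice and passed in neither. Neither call held without each array in turn: Erg lost its wild-type call in 10 of 13 fits that left out 1 array (-0.60 to -0.21), and Sox18 its knockout call in 10 of 13 (-0.54 to -0.38).

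Of the 3 secreted factors and enzymes of endothelium, Egfl7 and Nos3 fell in wild-type mice (18.1% of all genes). None passed in knockout mice (19.7% of all genes fell). In wild-type mice Egfl7 read 10.16, 10.21 and 10.24 on chow and 9.30, 10.09 and 9.67 on high-fat diet. Knockout values of Egfl7 were 9.86, 10.13 and 10.12 on chow and 9.98, 9.61, 9.60 and 9.68 on high-fat diet. Egfl7, a matrix-bound factor that guides tube formation, did not overlap in wild-type mice, although replicate 2 on high-fat diet sat within 0.07 of chow. The Egfl7 difference was -0.52 ± 0.16 (limma adjusted p 0.0201) in wild-type and -0.32 ± 0.15 (adjusted p 0.115) in knockout mice. In wild-type mice Nos3 read 7.98, 8.50 and 8.25 on chow and 7.21, 8.10 and 7.38 on high-fat diet. Knockout values of Nos3 were 7.86, 8.40 and 8.24 on chow and 8.11, 7.40, 7.70 and 7.66 on high-fat diet. Nos3, the endothelial nitric oxide synthase, overlapped between diets in both genotypes. Its difference was -0.68 ± 0.23 (limma adjusted p 0.0349) in wild-type and -0.45 ± 0.22 (adjusted p 0.132) in knockout mice. Each wild-type call was lost in 4 of 13 fits that left out 1 array, among them those without replicate 1 on high-fat diet (Egfl7 -0.33, adjusted p 0.0919, and Nos3 -0.50, adjusted p 0.145). Vwf, von Willebrand factor, differed by 0.04 ± 0.16 (limma adjusted p 0.891) in wild-type and -0.04 ± 0.15 (adjusted p 0.876) in knockout mice, and its sign turned when arrays were centred on their medians (-0.02 in wild-type mice).

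Of the 2 angiopoietin ligands 1 fell and 1 rose in wild-type mice (18.1% and 17.7% of all genes), and 1 rose in knockout mice (14.5%). In wild-type mice Angpt1 read 7.32, 7.67 and 7.30 on chow and 5.55, 5.38 and 6.13 on high-fat diet. Knockout values of Angpt1 were 6.20, 7.26 and 6.52 on chow and 6.34, 6.25, 6.40 and 6.48 on high-fat diet. Angpt1, the ligand that activates TEK, was lower on high-fat diet than on chow by 1.17 or more in every wild-type array. In knockout mice the diets overlapped, and the chow arrays themselves ranged over 1.06. In wild-type mice Angpt2 read 7.18, 6.98 and 6.94 on chow and 7.97, 7.90 and 8.37 on high-fat diet. Knockout values of Angpt2 were 7.79, 7.87 and 7.42 on chow and 8.00, 8.26, 8.13 and 8.12 on high-fat diet. Angpt2, the ligand that can oppose ANGPT1 and loosens vessels, was higher on high-fat diet in every array of both genotypes. The Angpt1 difference was -1.74 ± 0.24 (limma adjusted p 6.14e-05) in wild-type and -0.29 ± 0.22 (adjusted p 0.349) in knockout mice, a 3.34-fold lower level in wild-type mice. That of Angpt2 was 1.04 ± 0.14 (limma adjusted p 4.46e-05) in wild-type and 0.43 ± 0.13 (adjusted p 0.0186) in knockout mice, a 2.06-fold higher level in wild-type mice. Both wild-type calls held in all 23 alternatives. The knockout call of Angpt2 was lost without replicate 3 on chow (0.29, adjusted p 0.1) or replicate 2 on high-fat diet (0.39, adjusted p 0.0521), and with the replicate number as a block it stood at 0.43 (adjusted p 0.0638).

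**Figure D3:**
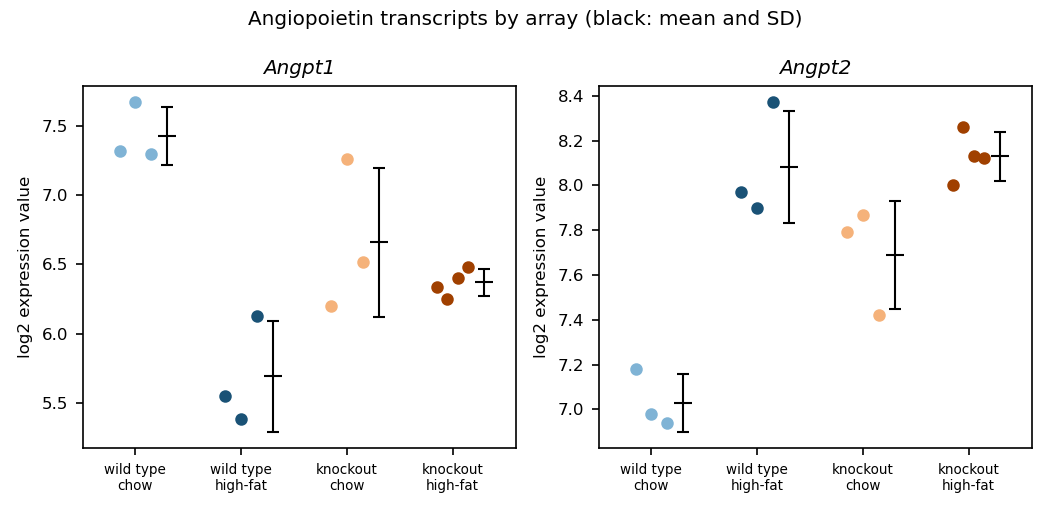
Log2 expression value of Angpt1 (left) and Angpt2 (right) on each array, by group, with the group mean and SD in black. For Angpt1 the 3 wild-type values on chow (7.30 to 7.67) lie above those on high-fat diet (5.38 to 6.13) while knockout values lie between; for Angpt2 wild-type mice on chow (6.94 to 7.18) lie below all other arrays.

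Between the genotypes neither angiopoietin passed the test. Angpt1 on chow was lower in every knockout array than in every wild-type array (-0.77 ± 0.24, limma adjusted p 0.296), and Angpt2 was higher in every one (0.66 ± 0.14, adjusted p 0.126). On high-fat diet Angpt1 was higher in every knockout array (0.68 ± 0.22, adjusted p 0.595) and Angpt2 did not separate (0.05 ± 0.13, adjusted p 0.956). The interaction was 1.45 ± 0.32 for Angpt1 (adjusted p 0.298) and -0.61 ± 0.19 for Angpt2 (adjusted p 0.362). Adjusted p of the Angpt1 interaction ran from 0.0983 to 1 over its alternatives, so it passed in none.

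Among 7 pericyte genes, 5 fell and 1 rose in wild-type mice (18.1% and 17.7% of all genes). In knockout mice 2 fell and 2 rose (19.7% and 14.5% of all genes). In wild-type mice Rgs5 read 10.65, 10.55 and 10.49 on chow and 9.13, 9.73 and 9.64 on high-fat diet. Knockout values of Rgs5 were 10.14, 10.29 and 10.33 on chow and 9.93, 9.49, 9.68 and 9.92 on high-fat diet. Rgs5, a regulator of G protein signalling and a leading pericyte marker, did not overlap between diets in either genotype. Its difference was -1.06 ± 0.14 (limma adjusted p 6.14e-05) in wild-type and -0.50 ± 0.14 (adjusted p 0.0112) in knockout mice, and the wild-type call held in all 23 alternatives. In wild-type mice Mcam read 11.76, 11.66 and 11.62 on chow and 10.36, 11.10 and 10.63 on high-fat diet. Knockout values of Mcam were 11.57, 11.71 and 11.76 on chow and 11.21, 10.76, 10.93 and 10.99 on high-fat diet. Mcam (CD146), carried by pericytes and by endothelium, was lower on high-fat diet in every array. The Mcam difference was -0.98 ± 0.15 (limma adjusted p 0.000179) in wild-type and -0.71 ± 0.14 (adjusted p 0.00155) in knockout mice. In wild-type mice Pdgfrb read 10.45, 10.13 and 10.18 on chow and 10.54, 10.56 and 10.78 on high-fat diet. Knockout values of Pdgfrb were 9.90, 10.06 and 10.10 on chow and 10.68, 10.56, 10.70 and 10.62 on high-fat diet. Pdgfrb, the receptor that holds pericytes at the vessel and is also carried by adipose fibroblasts, was higher on high-fat diet in every array of both genotypes. Its difference was 0.37 ± 0.09 (limma adjusted p 0.00591) in wild-type and 0.62 ± 0.08 (adjusted p 8.38e-05) in knockout mice. In wild-type mice Cspg4 read 7.68, 8.10 and 7.76 on chow and 7.61, 7.98 and 7.91 on high-fat diet. Knockout values of Cspg4 were 7.70, 7.84 and 7.63 on chow and 8.32, 8.06, 8.23 and 8.17 on high-fat diet. Cspg4, the proteoglycan NG2, did not overlap between diets in knockout mice and interleaved in wild-type mice. Its difference was -0.01 ± 0.12 (limma adjusted p 0.956) in wild-type and 0.47 ± 0.11 (adjusted p 0.006) in knockout mice, with an interaction of 0.48 ± 0.17 (adjusted p 0.397).

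The remaining pericyte genes encode a potassium channel and a receptor. Kcnj8 and Abcc9, the pore and the regulatory subunit of the ATP-sensitive channel of pericytes, are read apart here. For Kcnj8 the difference was -0.70 ± 0.19 (limma adjusted p 0.0117) in wild-type and -0.06 ± 0.18 (adjusted p 0.837) in knockout mice. For Abcc9 it was -0.50 ± 0.17 (limma adjusted p 0.0384) in wild-type and -0.20 ± 0.16 (adjusted p 0.37) in knockout mice. Notch3, which maintains mural cells, differed by -0.41 ± 0.14 (limma adjusted p 0.0352) in wild-type and -0.20 ± 0.13 (adjusted p 0.261) in knockout mice. Kcnj8 kept its wild-type call without each array in turn (-0.94 to -0.45), whereas Abcc9 lost it in 8 of 13 such fits (-0.72 to -0.24) and Notch3 in 4 (-0.54 to -0.29). Kcnj8 on high-fat diet ran from 7.93 to 8.90 in wild-type mice, below the lowest chow value of 9.08.

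**Figure D4:**
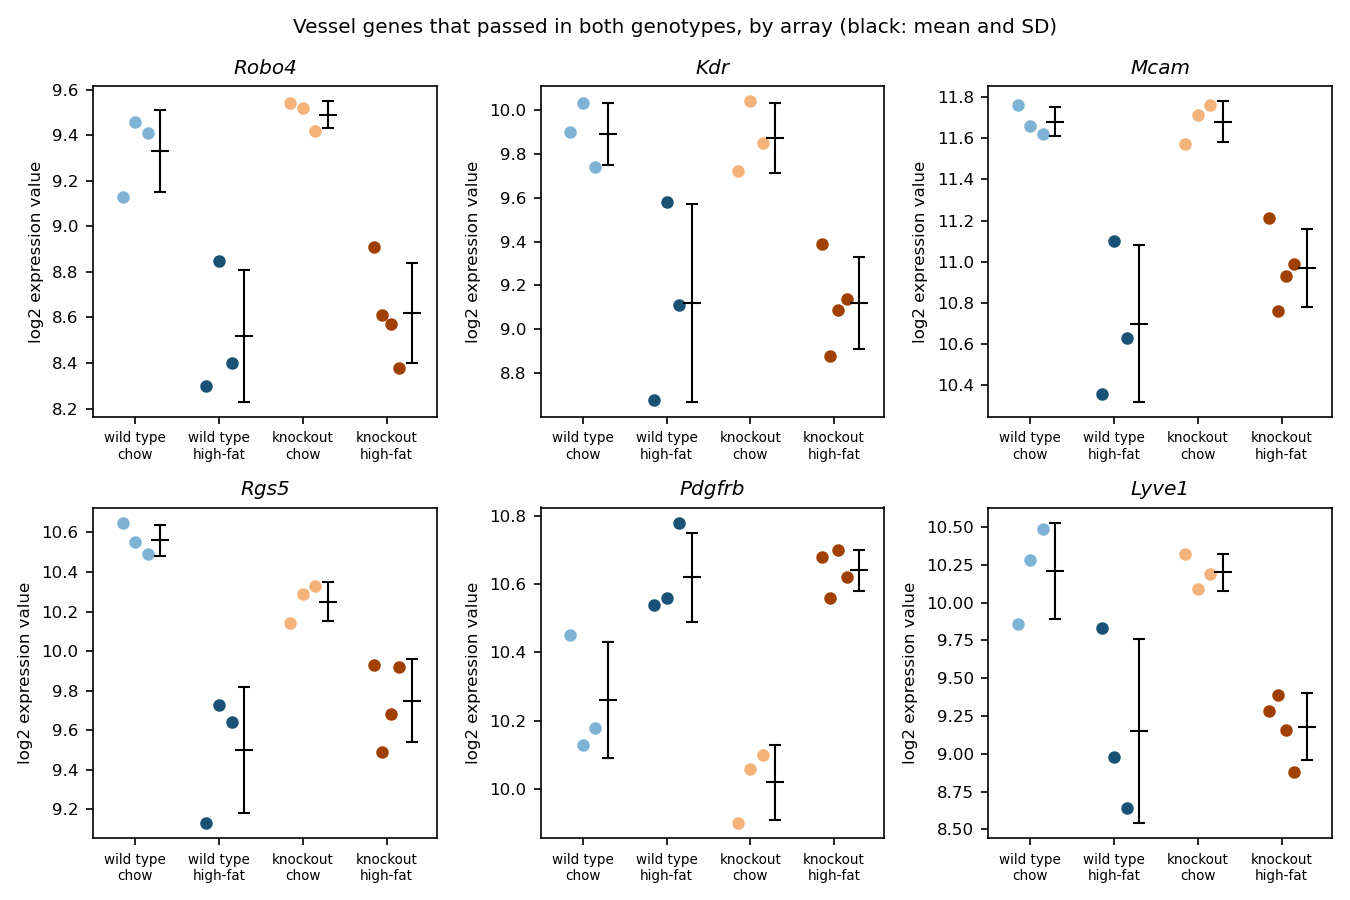
Log2 expression value on each array, by group, with the group mean and SD in black, for 6 vessel genes that passed in both genotypes. Robo4, Kdr, Mcam, Rgs5 and Lyve1 are lower and Pdgfrb is higher on high-fat diet, with no overlap between the diets within a genotype.

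Contractile genes of smooth muscle fell in 4 of 5 cases in wild-type mice (18.1% of all genes fell). In knockout mice 1 of 5 fell, near the share of all genes (19.7%). In wild-type mice Tagln read 8.82, 8.53 and 8.61 on chow and 7.96, 7.91 and 8.02 on high-fat diet. Knockout values of Tagln were 8.18, 8.39 and 8.59 on chow and 8.17, 7.97, 7.70 and 8.27 on high-fat diet. Tagln, transgelin (SM22), was lower in every wild-type array on high-fat diet and overlapped in knockout mice. Its difference was -0.69 ± 0.14 (limma adjusted p 0.00142) in wild-type and -0.36 ± 0.13 (adjusted p 0.0486) in knockout mice, and the knockout call was lost in 9 of 13 fits that left out 1 array (-0.46 to -0.25). In wild-type mice Acta2 read 11.52, 11.27 and 11.54 on chow and 10.84, 11.18 and 10.99 on high-fat diet. Knockout values of Acta2 were 11.26, 11.33 and 11.62 on chow and 11.29, 11.12, 11.14 and 11.31 on high-fat diet. Acta2, smooth muscle actin, did not overlap in wild-type mice and overlapped in knockout mice. The Acta2 difference was -0.44 ± 0.11 (limma adjusted p 0.00618) in wild-type and -0.19 ± 0.10 (adjusted p 0.18) in knockout mice. In wild-type mice Myh11 read 8.76, 7.97 and 8.38 on chow and 6.77, 7.32 and 7.69 on high-fat diet. Knockout values of Myh11 were 7.84, 7.84 and 8.54 on chow and 7.88, 7.40, 7.41 and 8.15 on high-fat diet. Myh11, smooth muscle myosin, had a wide spread within each group and still did not overlap in wild-type mice. The Myh11 difference was -1.11 ± 0.28 (limma adjusted p 0.00666) in wild-type and -0.36 ± 0.26 (adjusted p 0.319) in knockout mice. In wild-type mice Des read 8.79, 8.29 and 8.43 on chow and 8.11, 8.02 and 8.24 on high-fat diet. Knockout values of Des were 7.96, 8.19 and 8.14 on chow and 8.21, 8.03, 8.08 and 8.16 on high-fat diet. Des, desmin, was highest in wild-type mice on chow, and the other 3 groups lay together. Its difference was -0.38 ± 0.11 (limma adjusted p 0.0171) in wild-type and 0.02 ± 0.11 (adjusted p 0.885) in knockout mice, and the wild-type call was lost without replicate 1 on chow (-0.24, adjusted p 0.0679) or replicate 2 on high-fat diet (-0.33, adjusted p 0.0543). Cnn1, calponin, ran from 5.38 to 7.33 in wild-type mice and from 5.87 to 7.64 in knockout mice, and at -1.16 ± 0.45 (limma adjusted p 0.0592) in wild-type and -0.02 ± 0.42 (adjusted p 0.973) in knockout mice it did not pass.

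The 4 lymphatic genes did not move as one. In wild-type mice Lyve1 read 9.86, 10.28 and 10.49 on chow and 9.83, 8.98 and 8.64 on high-fat diet. Knockout values of Lyve1 were 10.32, 10.09 and 10.19 on chow and 9.28, 9.39, 9.16 and 8.88 on high-fat diet. Lyve1, a hyaluronan receptor, was lower in every array on high-fat diet in both genotypes, by 0.03 at the closest in wild-type mice. Its difference was -1.06 ± 0.24 (limma adjusted p 0.00377) in wild-type and -1.02 ± 0.23 (adjusted p 0.00341) in knockout mice, the larger of the lymphatic differences in each genotype. LYVE1 also marks resident macrophages, and of 12 macrophage genes 10 rose in wild-type mice and 9 in knockout mice while 2 fell in each. Those that fell were Timd4 (-1.49 ± 0.20 and -1.23 ± 0.18) and Cd163 (-0.90 ± 0.18 and -1.07 ± 0.17), both markers of resident macrophages. The 10 that rose in wild-type mice include Mrc1 and Folr2, which resident macrophages also carry, so the resident markers did not move as one. The part of macrophages in the Lyve1 difference was not tested. In wild-type mice Flt4 read 7.00, 6.66 and 6.71 on chow and 5.46, 6.31 and 6.47 on high-fat diet. Knockout values of Flt4 were 6.58, 6.52 and 7.07 on chow and 6.61, 6.27, 6.19 and 6.56 on high-fat diet. Flt4 (VEGFR3), the receptor for VEGF-C and VEGF-D, did not overlap in wild-type mice. Its difference was -0.71 ± 0.23 (limma adjusted p 0.0277) in wild-type and -0.31 ± 0.22 (adjusted p 0.301) in knockout mice, and the wild-type call was lost without replicate 1 on chow (-0.61, adjusted p 0.0986), replicate 3 on chow (-0.75, adjusted p 0.0501) or replicate 1 on high-fat diet (-0.40, adjusted p 0.115). In wild-type mice Prox1 read 5.67, 4.96 and 4.98 on chow and 4.03, 4.83 and 5.30 on high-fat diet. Knockout values of Prox1 were 4.75, 4.68 and 5.52 on chow and 5.20, 4.59, 5.21 and 5.34 on high-fat diet. Prox1, the transcription factor that specifies lymphatic endothelium, overlapped between diets in both genotypes. Its difference was -0.49 ± 0.32 (limma adjusted p 0.278) in wild-type and 0.10 ± 0.30 (adjusted p 0.829) in knockout mice. Pdpn, podoplanin, shared by lymphatic endothelium, mesothelium and fibroblasts, differed by 0.27 ± 0.19 (limma adjusted p 0.305) in wild-type and 0.01 ± 0.18 (adjusted p 0.972) in knockout mice and passed in neither, and 1 array, replicate 1 of the wild-type high-fat group, read 10.11 against 8.97 to 9.52 in the other 12.

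Between the genotypes 0 of 36 vessel genes passed on chow (0.133% of all genes passed), 0 on high-fat diet (0.0425%) and 0 over both diets (0.106%), and 0 passed the interaction (0% of all genes). At an unadjusted p under 0.05 the counts were 5, 4, 2 and 8 of 36, against 9.62%, 7.41%, 7.23% and 9.72% of all genes. The smallest adjusted p was 0.126 on chow, 0.595 on high-fat diet, 0.324 over both diets and 0.298 for the interaction. On chow 7 vessel genes lay wholly below wild type and 1 wholly above. Of all 18820 genes 1062 lay wholly below and 1751 wholly above (14.9% did either). The 7 were Emcn, Egfl7, Angpt1, Rgs5, Pdgfrb, Kcnj8 and Des, with Des at -0.41 ± 0.11 (adjusted p 0.268) and Rgs5 at -0.31 ± 0.14 (adjusted p 0.525). On high-fat diet Angpt1 and Cspg4 lay wholly above, with Cspg4 at 0.36 ± 0.11 (limma adjusted p 0.595), and 0 lay wholly below. Of all 18820 genes 453 lay wholly above and 804 wholly below (6.68% did either). The interaction lay above 0 for 30 of the 36 vessel genes, among them 14 of 18 endothelial and 12 of 12 mural genes, against 41.4% of all genes, and none passed. Over the mural genes the interaction ran from 0.21 to 1.14. These signs are not independent, since all rest on the same arrays. Replicate 1 of the wild-type high-fat group, lowest of all 13 arrays for 27 of the 36 genes, enters each interaction. The signs without that array were not counted. Leaving out replicate 2 of the wild-type high-fat group gave 1 call, Esam on high-fat diet (0.38 ± 0.08, adjusted p 0.0484).

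Genes of the same signalling systems, from lists written with earlier results of these data known, moved in both directions. Of 115 such genes 18 rose and 48 fell in wild-type mice (17.7% and 18.1% of all genes), and 18 rose and 31 fell in knockout mice (14.5% and 19.7%). Of these 66 and 49 calls, 19 and 13 were lost in at least 1 fit that left out 1 array. In the VEGF family the co-receptor Nrp2 rose (in wild type 1.14 ± 0.11, adjusted p 4.17e-06, and 0.88 ± 0.11 in knockout mice, adjusted p 2.76e-05). The ligands Vegfa (-1.42 ± 0.19, adjusted p 6.67e-05, and -1.41 ± 0.18, adjusted p 5.08e-05) and Vegfb (-1.22 ± 0.13, adjusted p 6.76e-06, and -1.34 ± 0.12, adjusted p 2.19e-06) fell in both genotypes. Vegfd, a ligand of FLT4, fell in wild-type mice (-0.44 ± 0.15, adjusted p 0.032) and stood at 0.15 ± 0.14 in knockout mice (adjusted p 0.456). The wild-type call of Vegfd was lost in 4 of 13 fits that left out 1 array. Of 7 genes, 1 rose and 3 fell in wild-type mice (17.7% and 18.1% of all genes). In knockout mice 1 rose and 2 fell (14.5% and 19.7%). The count that rose is near the share of all genes in each genotype. Of 5 further genes of the platelet-derived growth factor system, 2 rose and 1 fell in each genotype. Of all genes 17.7% and 14.5% rose and 18.1% and 19.7% fell, so the count that fell is near those shares. Pdgfb, the endothelial ligand of PDGFRB, rose in wild-type mice (0.58 ± 0.08, adjusted p 4.75e-05) and in knockout mice (0.22 ± 0.07, adjusted p 0.0316). Pdgfa rose in wild-type mice (0.29 ± 0.09) and Pdgfra in knockout mice (0.40 ± 0.10), while Pdgfc fell in both (-0.23 ± 0.08 and -0.33 ± 0.07). The calls of Pdgfa and Pdgfc in wild-type mice and of Pdgfb in knockout mice were lost in 2, 4 and 5 of 13 fits that left out 1 array.

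Of 11 Notch genes 7 fell in wild-type mice (18.1% of all genes) and 5 in knockout mice (19.7%). Notch1 (-0.78 ± 0.10 and -0.75 ± 0.09), the arterial ligand Dll4 (-0.79 ± 0.19 and -0.83 ± 0.17), Jag1 (-0.42 ± 0.08 and -0.53 ± 0.08), Jag2 (-0.67 ± 0.14 and -0.52 ± 0.13) and Notch4 (-0.63 ± 0.16 and -0.56 ± 0.15) fell in both genotypes. Hey2, a target of Notch in arteries, fell in wild-type mice (-0.82 ± 0.18, adjusted p 0.00236) and stood at -0.40 ± 0.16 in knockout mice (adjusted p 0.0749). Rbpj, the shared nuclear partner of Notch receptors, rose (0.36 ± 0.11 and 0.31 ± 0.10), calls lost in 3 and 5 of 13 fits that left out 1 array, but the mean of all its probe sets stood at -0.13 in knockout mice (adjusted p 0.375). Notch3, among the pericyte genes, belongs to the same system.

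Of 21 further endothelial genes 13 fell and 1 rose in wild-type mice (18.1% and 17.7% of all genes). In knockout mice 9 fell and 2 rose (19.7% and 14.5% of all genes). Sox7 (-1.63 ± 0.22 and -0.89 ± 0.21), Palmd (-0.95 ± 0.10 and -0.79 ± 0.10), the endothelial phosphatase Ptprb (-0.83 ± 0.14 and -0.72 ± 0.13) and Cyyr1 (-0.89 ± 0.19 and -0.81 ± 0.17) fell in both genotypes. Lmo2, a partner of endothelial and blood cell factors, rose in both (1.04 ± 0.09 and 1.05 ± 0.08), and Fli1, shared with leukocytes, rose in knockout mice (0.25 ± 0.06). Of 11 genes of endothelial fatty acid handling 6 fell in wild-type mice (18.1% of all genes) and 4 in knockout mice (19.7%). Fabp5 alone rose, in both genotypes (1.15 ± 0.15 and 1.03 ± 0.14), where 17.7% and 14.5% of all genes rose. Gpihbp1, which carries lipoprotein lipase to the capillary lumen, fell in both (-0.91 ± 0.19 and -0.65 ± 0.17), as did Tcf15 (-1.18 ± 0.25 and -0.66 ± 0.23), a partner of MEOX2, and the retinol-binding Rbp7 (-1.09 ± 0.35 and -1.62 ± 0.32). Fabp4 fell in wild-type mice (-0.36 ± 0.06) and Slc27a4 in knockout mice (-0.23 ± 0.08). In fits that left out 1 array, the wild-type call of Rbp7 was lost in 4 of 13 (-1.49 to -0.82), the knockout call of Tcf15 in 7 (-0.82 to -0.54) and that of Slc27a4 in 8 (-0.25 to -0.16). Adipocytes also make FABP4, and 8 of 9 adipocyte markers fell and 1 rose in each genotype (18.1% and 19.7% of all genes fell). The part of adipocytes in the Fabp4 difference was not tested.

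Of 8 genes of activated endothelium 4 rose and 0 fell in wild-type mice (17.7% and 18.1% of all genes), and 5 rose and 1 fell in knockout mice (14.5% and 19.7%). Vcam1 (0.76 ± 0.13 and 1.01 ± 0.12), Icam1 (0.88 ± 0.12 and 0.51 ± 0.11), the chemokine receptor Cxcr4 (1.00 ± 0.15 and 0.96 ± 0.14) and P-selectin (Selp, 0.49 ± 0.13 and 0.41 ± 0.12) rose in both, and Ackr1 rose in knockout mice (0.25 ± 0.08). The knockout calls of Selp and Ackr1 were lost in 2 and 4 of 13 fits that left out 1 array (0.26 to 0.52 and 0.21 to 0.29). Macrophages carry CXCR4 and ICAM1 too, and the mean over 12 macrophage markers was 8.67 to 9.03 on chow and 9.63 to 10.05 on high-fat diet in wild-type mice, and 8.88 to 8.96 and 9.63 to 9.87 in knockout mice. Its part in these differences was not tested. Apln, the tip-cell ligand apelin, fell in knockout mice (-0.93 ± 0.13, adjusted p 0.000101). Apln was also one of the genes higher in knockout than in wild-type mice on chow (0.83 ± 0.14, adjusted p 0.0451), a call lost in 10 of 13 fits that left out 1 array (0.74 to 0.89).

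Among 23 genes of other vessel signalling 4 rose and 7 fell in each genotype, where 17.7% and 14.5% of all genes rose and 18.1% and 19.7% fell. The counts that rose are near those shares. Fgf2 (-1.57 ± 0.15 and -1.34 ± 0.14), Bmp4 (-1.37 ± 0.13 and -0.82 ± 0.12), Slit3 (-0.65 ± 0.08 and -0.56 ± 0.07), the hypoxia factor Epas1 (-0.58 ± 0.10 and -0.39 ± 0.10) and the inhibitor of angiogenesis Thbs1 (-0.61 ± 0.15 and -0.95 ± 0.14) fell in both genotypes. Those that rose were Hif1a, Calcrl and Slit2 in both, Robo1 in wild-type mice (0.82 ± 0.17) and the apelin receptor Aplnr in knockout mice (1.22 ± 0.22). The wild-type call of Slit2 (0.76 ± 0.26) was lost in 4 of 13 fits that left out 1 array (0.44 to 1.06), those without replicate 2 or 3 on chow or replicate 1 or 3 on high-fat diet.

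Of 22 further mural genes 9 fell and 1 rose in wild-type mice (18.1% and 17.7% of all genes). In knockout mice 3 fell and 1 rose, where 19.7% and 14.5% of all genes did and the list's shares are lower. Ano1, a chloride channel of pericytes and smooth muscle, fell in both (-1.54 ± 0.14 and -0.78 ± 0.13), as did Ppp1r14a (-0.76 ± 0.16 and -0.52 ± 0.15) and Rgs4 (-0.53 ± 0.15 and -0.49 ± 0.14). In fits that left out 1 array, the Rgs4 calls were lost in 2 and 3 of 13 (-0.69 to -0.37 and -0.61 to -0.37) and the knockout call of Ppp1r14a in 1 (-0.58 to -0.46). Myl9, a smooth muscle myosin light chain, fell in wild-type mice (-0.94 ± 0.19, adjusted p 0.00162). Pcp4l1 rose in both (2.41 ± 0.34 and 2.93 ± 0.32). Of 8 further lymphatic genes 3 rose and 2 fell in wild-type mice (17.7% and 18.1% of all genes) and 1 rose in knockout mice (14.5%). Sema3a (-0.77 ± 0.10, adjusted p 3.31e-05) and the lymphatic valve factor Foxc2 (-0.76 ± 0.13, adjusted p 0.000447) fell in wild-type mice, where Thy1 (0.88 ± 0.18) and Itga9 (0.34 ± 0.12) rose. The Itga9 call was lost in 9 of 13 fits that left out 1 array (0.16 to 0.44). Stab2 rose in both genotypes (0.57 ± 0.11 and 0.51 ± 0.10). Sema3a was lower in knockout than in wild-type mice on chow (-0.60 ± 0.10, adjusted p 0.0407), a call lost in 9 of 13 fits that left out 1 array (-0.65 to -0.51).

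Other cell markers moved with the diet beside the vessel genes. The mean over 9 adipocyte markers was 12.05 to 12.21 on chow and 11.17 to 11.62 on high-fat diet in wild-type mice, and 12.19 to 12.24 and 11.35 to 11.67 in knockout mice. All 7 mesothelial markers fell in each genotype, with a mean of 9.36 to 9.63 on chow and 7.53 to 8.76 on high-fat diet in wild-type mice, and of 8.91 to 9.72 and 8.26 to 8.45 in knockout mice. Of 11 skeletal muscle markers 1 rose (Pvalb, 2.94 ± 0.24 and 3.00 ± 0.22) in both genotypes, 3 fell in wild-type mice (down to -1.63) and 4 in knockout mice (down to -0.94), while their mean stood at 5.27 to 5.56 over all arrays. All 7 cell division genes rose in both genotypes, with a median of 2.28 in wild-type and 2.11 in knockout mice. Of 2 red blood cell genes both fell in wild-type mice (Alas2 -1.44 ± 0.35 and Slc4a1 -0.86 ± 0.24) and Alas2 fell in knockout mice (adjusted p 0.0317). The part of these shifts in the vessel gene differences was not tested.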

How the data were processed

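The authors deposited log2 intensities summarised per probe set with RMA, per the submitters' processing notes, which name no version. Of 35556 probe sets, 21218 paired with 1 gene symbol, 1881 with several and 12457 with none, and only the first were used. Each gene was represented by its probe set with the highest mean over the 13 arrays, giving 18820 genes. Arrays carry no read depth, so their number limits the precision.

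One mean per group was fitted over all 13 arrays with limma 3.58.1 in R 4.3.3 (lmFit, contrasts, eBayes with an intensity trend), with Benjamini-Hochberg adjustment over 18820 genes and a threshold of 0.05. Figures and tables were made with Python 3.11.15, pandas 2.3.3, numpy 2.4.6 and matplotlib 3.10.9. The 36 vessel genes and all lists were chosen with earlier results of these data known. Values by array are given for up to 4 genes of each role, those with the smallest diet p; from each further list up to 4 passing genes with the smallest p per diet contrast are named, and others named beside a count of 5 or fewer were chosen after their values were seen. Of the list entries, 6 of 122 signalling and 16 of 115 cell marker entries were not measured here. All 36 vessel genes matched RefSeq by Entrez identifier, and 22 had a promoter in the table.

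The fit was tested on simulated data with 200 changed genes among 18820. It recovered 75% of 1.5-fold and 95% of 2-fold changes for the wild-type diet contrast. For the knockout diet contrast the shares were 78% and 96%, and for the interaction 48% and 86%. These shares hold only for simulated data with that many changed genes. In the measured data 0 of 18820 genes passed the interaction, and the 2.73-fold interaction of Angpt1 had a limma adjusted p of 0.298. The 86% therefore does not show that a 2-fold interaction would have been found here. Alternatives were no intensity trend, median centring, quantile normalization, leaving out genes with a mean under 5, the mean of all probe sets, array weights, the replicate number as a block, only the groups compared, a minimum fold of 1.5, each array left out and, added after seeing the data, a liver transcript mean as covariate.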

Additional observations from a re-analysis of the deposited data

Results flagged for a closer look

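Among the 36 vessel genes in knockout mice on high-fat diet, the only group with 4 arrays, Dixon's test set 1 array apart for 2 genes, where chance alone sets apart about 1 in 20. Cdh5 in replicate 1 read 11.15, against 10.94 in the next array, a gap of 0.84 of the group's range. Cldn5 in the same replicate read 10.81, against 10.41 in the next, a gap of 0.88 of the range.

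The Angpt1 difference between the genotypes had opposite directions on the diets, with every knockout array below wild type on chow and above it on high-fat diet. The interaction was 1.45 (limma adjusted p 0.298), so the test of the difference did not pass.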

How the results depend on the processing

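The count of vessel genes that fell in wild-type mice (23) became 11 with only the groups compared (13.7% of all genes fell), 2 with a minimum fold of 1.5 (2.39%), 7 with the liver mean as covariate (11.2%), and 14 to 26 with each array left out in turn. The count that rose there (2) became 1 with the minimum fold (4.67% of all genes rose). In knockout mice the count that fell (8) became 13 with array weights (24.1%), 0 with the minimum fold (1.68%) and 5 to 11 with each array left out, and the count that rose (4) became 0 with the minimum fold (3.51%) and 3 to 4 with each array left out. The genotype comparison on high-fat diet gave 0 to 1 genes that rose with each array left out, and all other genotype and interaction counts were 0 in every alternative run. The cause of these shifts was not tested, except that the minimum fold asks for more. With the replicate number as a block 17 genes fell in wild-type mice (17.7% of all genes in that fit). In knockout mice 6 fell (16.7%) and 3 rose (13.1%), not above the shares of all genes. Arrays of the same number did not pair (correlations of deviations from -0.3 to 0.22, 5 of 18 over 0.1). No called vessel gene changed sign. Uncalled values that did, with each array left out, ran in knockout mice from -0.52 to 0.01 for Angpt1, -0.28 to 0.49 for Cnn1, -0.04 to 0.07 for Des, -0.14 to 0.06 for Kcnj8, -0.14 to 0.13 for Pdpn, -0.05 to 0.37 for Prox1 and -0.13 to 0.06 for Vwf. In wild-type mice they ran from -0.10 to 0.12 for Cspg4, -0.02 to 0.42 for Pdpn and -0.06 to 0.19 for Vwf, and between genotypes from -0.04 to 0.19 for Angpt2 on high-fat diet and -0.21 to 0.01 for Cspg4 on chow. With the liver mean as covariate Cldn5 stood at 0.08 and Cspg4 at 0.02 in wild-type mice and Angpt2 between genotypes on high-fat diet at -0.01, or 0 with array weights. Vwf in wild-type mice stood at -0.02 with median centring, 0 with quantile normalization and -0.04 with array weights, and Rbpj in knockout mice at -0.13 with the mean of all probe sets. With 3 or 4 arrays a group and no depth on an array, the spread between arrays limits the precision.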

Other observations

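The lymphatic chemokine CCL21 could not be assigned to 1 gene copy, since 4 probe sets with identical values are shared by Gm1987, Ccl21b, Ccl21c and Ccl21a. Their values ran from 9.99 to 11.28 in wild-type mice on chow, from 6.44 to 10.94 in wild-type mice on high-fat diet, from 9.25 to 10.97 in knockout mice on chow and from 9.75 to 10.78 in knockout mice on high-fat diet. A further probe set for Abcc9, shared with 5330439B14Rik, read 3.69 to 3.94 on all 13 arrays.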
